A study of Mus musculus with 15 samples.

Results

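The interferon response genes are a set of 39 genes, chosen by symbol, that hold interferon-stimulated genes, STAT and IRF transcription factors and genes of antigen presentation. All 39 were found among the 24421 gene symbols of both tables. They were measured by single-end RNA-seq in a cell line derived from adult mouse bile ducts, whose lining consists of biliary epithelial cells. The libraries fall into tamoxifen and ethanol groups at 12 h, with 4 and 3 libraries, and at 24 h, with 4 and 4. Every library comes from C57BL/6 cells of the genotype ITR-CreERT2;Klf5flox/flox, an inducible Cre recombinase together with floxed alleles of Klf5, a zinc finger transcription factor of epithelia. The tamoxifen groups received 4-OH tamoxifen, which activates the recombinase, and the ethanol groups received the solvent. No group lacks the recombinase, so the drug, the activity of Cre and the loss of Klf5 cannot be told apart in this contrast. The series calls the material a 3D structure in vitro in one place and biliary structures in vivo in another, and the source label names a cell line. The labels do not say whether replicates were separate cultures, so a p-value here sets a difference against library-to-library spread that may be purely technical.

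Interferons are secreted proteins through which a cell warns itself and its neighbours of infection. Type I interferons act through a receptor that activates a complex with STAT2 and IRF9, which binds interferon-stimulated response elements in promoters. Interferon gamma acts through gamma-activated sites and induces IRF1, a factor that in turn drives guanylate-binding proteins and antigen presentation. Many of the target genes are also reached without interferon, through IRF3, IRF1 or NF-kB. Biliary epithelial cells are known to respond to interferons and to secrete chemokines that attract lymphocytes.

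The authors' deposited tables compare the 2 agents within each time and give no value for single libraries. Depth is therefore known as an average: summed over all genes, the means in the authors' deposited tables come to 13.9 M normalised counts per library at 12 h and 11.8 M at 24 h. A mean normalised count is the average of a gene over all libraries of a time after scaling for depth. Group levels below were computed from that mean and the fold as if every library had equal weight, and are approximate. Klf5, the targeted gene, stood at 40.9% of ethanol at 12 h (adjusted p = 9.75e-06) and at 30.4% at 24 h (adjusted p = 9.51e-107) in the authors' deposited tables, by their Wald test. The fall at 24 h is not an independent result, since the direction of all folds at 24 h was taken from it. The labels do not name the floxed exons, and the exons of Klf5 over which reads were counted were not given. Of the biliary markers, keratin 19 (Krt19) had a mean of 23752 normalised counts at 12 h and 6700 at 24 h in the authors' deposited tables, while Epcam had 15.7 and 9.56. The 18 leukocyte markers in the tables sum to a mean of 6.01 at 12 h and 3.10 at 24 h, with 10 and 11 of them at 0. The summed level of these markers was 6.10 in tamoxifen cells and 5.89 in ethanol cells at 12 h, and 4.01 and 2.18 at 24 h. Ptprc (CD45), which defines leukocytes, had a mean of 2.28 at 12 h and 0.613 at 24 h in the authors' deposited tables, where 3 reads over all libraries correspond to about 0.429 and 0.375.

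Promoter sequences are given for the chemokine gene Cxcl10 and the factor gene Irf1, since these had the members' calls at 12 h and each holds a motif of the pathway. The 250 bases before the transcript start are shown 5′ to 3′ on the gene's strand, from RefSeq on GRCm38.p6. Capitals mark every match, on either strand, to the interferon-stimulated response element (GAAA and GAAA separated by 2 bases), the gamma-activated site (TTCNNNGAA), the kappa B site of NF-kB (GGGA and TTCC separated by 2 bases) or a Krüppel-like factor box (CCNCNCCC). The Cxcl10 stretch lies on the reverse strand at chr5:92348890-92349139 and the Irf1 stretch on the forward strand at chr11:53769764-53770013.
Cxcl10: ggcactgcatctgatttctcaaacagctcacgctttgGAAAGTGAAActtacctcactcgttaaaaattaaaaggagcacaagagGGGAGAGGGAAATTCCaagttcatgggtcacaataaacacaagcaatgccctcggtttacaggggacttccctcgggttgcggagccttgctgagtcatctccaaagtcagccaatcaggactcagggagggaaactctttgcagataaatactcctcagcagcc
Irf1: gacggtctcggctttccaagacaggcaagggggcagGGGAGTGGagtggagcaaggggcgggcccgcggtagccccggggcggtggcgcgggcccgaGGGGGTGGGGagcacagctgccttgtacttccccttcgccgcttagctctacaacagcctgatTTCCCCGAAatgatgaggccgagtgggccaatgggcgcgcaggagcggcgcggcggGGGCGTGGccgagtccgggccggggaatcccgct

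In Cxcl10 the response element spans positions -213 to -204 from the start and the kappa B match spans -159 to -150, overlapping a Krüppel-like factor box at -165 to -158 on the other strand. In Irf1 the gamma-activated site spans -90 to -82. A second annotated start of Irf1 and the promoter of Tapbp held none of the 4 motifs in this window. The Tapbp window, at chr17:33919228-33919477, lies inside the annotated gene, so the bases before the gene's outermost start were not scanned. Parp14, called higher at 24 h, had no promoter sequence to scan. Isg20, called lower at 24 h, held a gamma-activated site before its start 1 and a kappa B match before its start 2. Before its starts 2 and 3 lay Krüppel-like factor boxes. Ifih1, called higher at 24 h, held only Krüppel-like factor boxes. Of the members, 32 had a promoter in the table, with 40 promoters in all. The response element was found in 14 of these 40 promoters, each of another gene, against 2.98% of all 32851 promoters. Gamma-activated sites were found in 8 of the 40, against 7.02% of all promoters, and kappa B matches in 5, against 1.21%. Krüppel-like factor boxes were found in 21 of the 40, against 45.9% of all promoters. A match is a description of the letters and not a measured binding site.

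The members were spread over a wide range of levels. At 12 h, 14 of the 39 members had a mean under 10 normalised counts and 3 of these had no read, while 6 had at least 1000. At 24 h, 17 had a mean under 10 and 3 had at least 1000. Counts were divided by exon length (GENCODE, GRCm38) to compare genes. Per kilobase, B2m, the invariant light chain of MHC class I, was highest with 7943 normalised counts at 12 h and 6009 at 24 h. Bst2 (tetherin, which holds budding virus at the membrane) followed at 12 h with 747 per kilobase, then Tapbp (tapasin, which loads peptides onto class I) with 389, Irf3 with 355 and Irf1 with 336. At 24 h the order below B2m was Trim25 with 279 per kilobase, Adar with 275, Bst2 with 230 and Irf3 with 182.

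**Figure D1:**
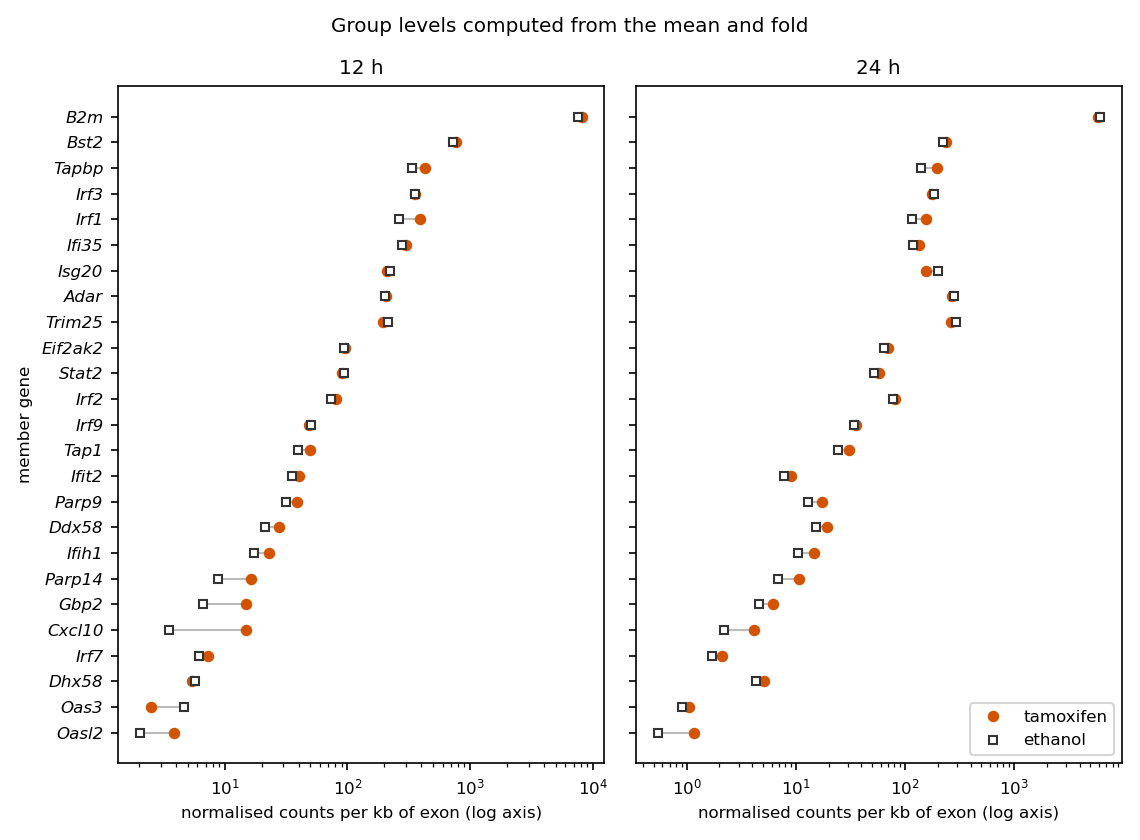
Levels of the 25 members whose mean at 12 h was 10 normalised counts or more, as normalised counts per kilobase of exon on a log axis, with filled circles for tamoxifen and open squares for ethanol, at 12 h (left) and 24 h (right). B2m lies far above the rest, and the distance between the circle and the square is largest for Cxcl10 at 12 h.

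At the low end stood genes that are known as sensitive reporters of type I interferon. Ifit1, an inhibitor of viral mRNA translation, had no read at 12 h and a mean of 0.471 at 24 h in the authors' deposited tables. Rsad2 (viperin) had no read at 12 h and a mean of 0.248 at 24 h, and Ifi44 had none and 0.134, in the authors' deposited tables. The oligoadenylate synthetase genes Oas1a and Oas2, whose products activate RNase L, had means of 0.416 and 0.147 at 12 h and of 0 and 0.12 at 24 h in the authors' deposited tables. The GTPase gene Mx1 had a mean of 2.10 at 12 h and 0.37 at 24 h in the authors' deposited tables. Isg15, the ubiquitin-like modifier, had a mean of 7.74 at 12 h and 4.92 at 24 h in the authors' deposited tables. Ifit3, Oasl1, Mx2 and Ifitm3 had means of 4.25, 3.63, 1.42 and 7.90 at 12 h, and of 0.973, 1.13, 0.636 and 2.10 at 24 h, in the authors' deposited tables. Mx2 is annotated as a polymorphic pseudogene in the mouse reference. For genes near the mean of 3 reads, no change was detectable at this depth in either direction.

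Most members had positive folds at both times, by small amounts. Of the 33 members with an adjusted p at 12 h, 24 had a positive log2 fold in the authors' deposited table. Their median log2 fold was 0.18 at 12 h, against -0.01 over all genes with an adjusted p, of which 48.6% were positive. At 24 h, 22 members had an adjusted p and 17 of them a positive log2 fold in the authors' deposited table. Their median was 0.20, against 0.00 over all genes, of which 49.9% were positive. Most of these folds were under 2-fold: 3 members at 12 h and 1 at 24 h reached 2-fold in either direction.

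At 12 h the authors' Wald test called 2 members higher and none lower, with a threshold of 0.05 on the adjusted p. Of all 13044 genes with an adjusted p, 0.215% rose and 0.728% fell by this rule. At an unadjusted p under 0.05, 4 members were higher and 0 lower of 36 with a p in the authors' deposited table, against 1.97% of all genes higher and 2.92% lower. At 24 h the authors' Wald test called 4 members higher and 1 lower. Of all 11648 genes with an adjusted p, 5.9% rose and 6.52% fell. At an unadjusted p under 0.05, 9 members were higher and 2 lower of 38 in the authors' deposited table, against 8.91% of all genes higher and 9.08% lower.

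**Figure D2:**
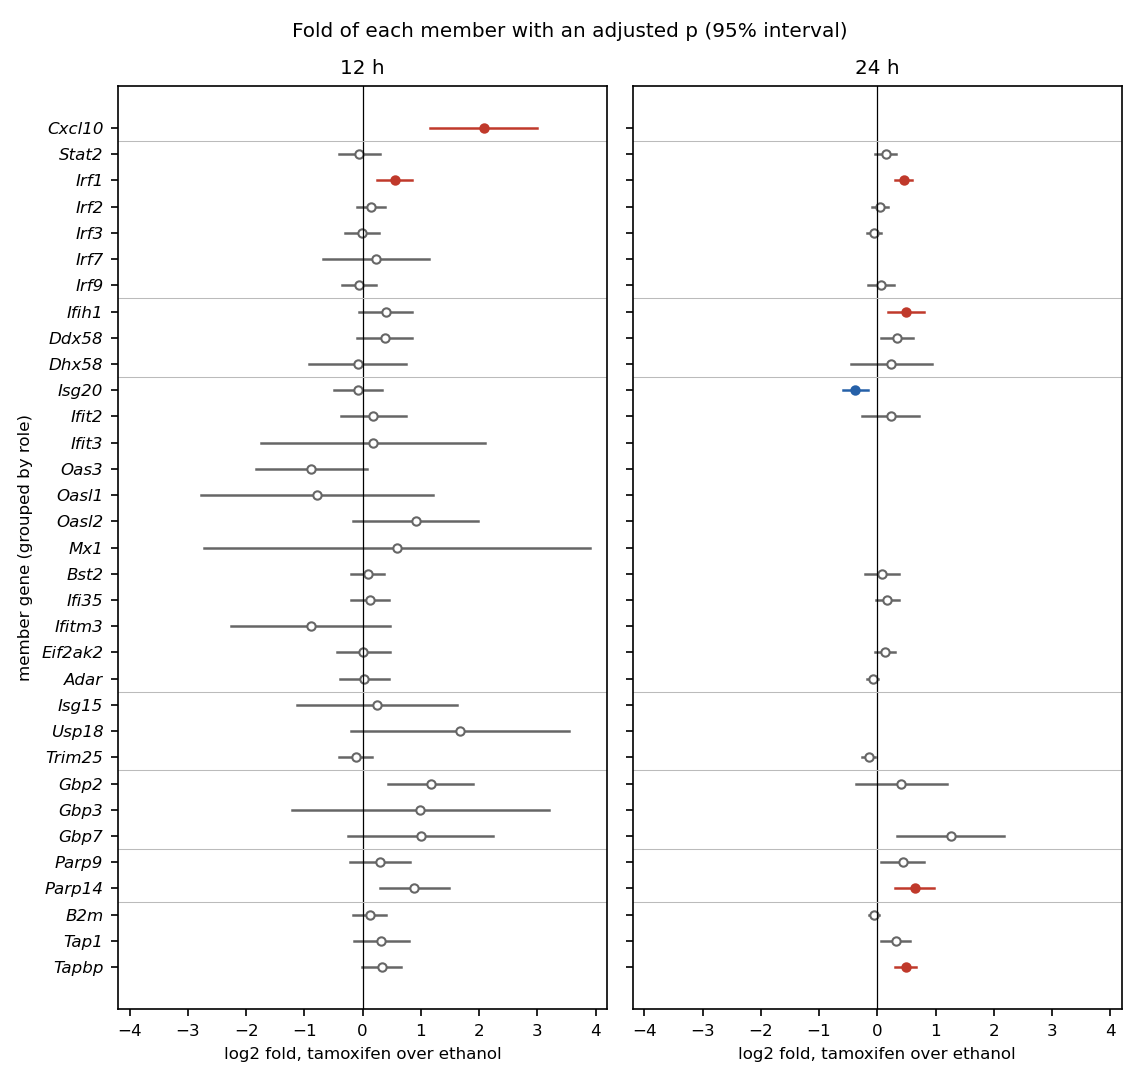
Log2 fold of tamoxifen over ethanol for the 33 members with an adjusted p at 12 h (left) and the 22 at 24 h (right), grouped by role; points are the authors' folds, bars are 95% intervals, red marks genes called higher and blue genes called lower. Cxcl10 and Irf1 are red at 12 h; Irf1, Ifih1, Parp14 and Tapbp are red and Isg20 is blue at 24 h.

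The chemokine gene was the member with the largest called fold. Cxcl10 (chromosome 5, 92346638 to 92348889, reverse strand, GRCm38) encodes a chemokine that attracts T cells through CXCR3. At 12 h its level was 33.3 normalised counts in tamoxifen cells, against 7.91 in ethanol cells. It rose by 2.08 on the log2 scale in the authors' deposited table (SE 0.47, adjusted p = 0.00188 by their Wald test), a 4.21-fold difference with a 95% interval of 2.23 to 7.96. At 24 h its level was 9.28 in tamoxifen cells and 4.97 in ethanol cells. The log2 fold there was 0.90 in the authors' deposited table (SE 0.58, unadjusted p = 0.12 by their Wald test). It has no adjusted p at 24 h, since its mean of 7.13 normalised counts lies under 7.34, the lowest mean with one in the authors' deposited table. Of its exon bases 5.91% overlap exons of Art3, and the library kit does not mark the strand.

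Among the 6 transcription factors, Irf1 alone passed the threshold, and it did so at both times. Irf1 (chromosome 11, 53770014 to 53778374, forward strand, GRCm38) encodes the factor that activates many targets of interferon gamma. Its level at 12 h was 1549 normalised counts in tamoxifen cells, against 1056 in ethanol cells. At 24 h its level was 627 in tamoxifen cells, against 458 in ethanol cells. It rose by 0.55 (SE 0.15, adjusted p = 0.0366) at 12 h and by 0.45 (SE 0.07, adjusted p = 3.83e-08) at 24 h in the authors' deposited tables, by their Wald test. These log2 folds are 1.47-fold and 1.37-fold, with 95% intervals of 1.19 to 1.81 and 1.24 to 1.51.

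None of the other 5 factors passed the threshold. Stat2 and Irf9, which take part in the type I interferon factor, stood at -0.05 (SE 0.18) and -0.06 (SE 0.15) at 12 h in the authors' deposited table. At 24 h the authors' deposited table gives 0.14 (SE 0.09) for Stat2 and 0.06 (SE 0.12) for Irf9. Irf3, which starts interferon synthesis after nucleic acids are sensed, was at -0.01 (SE 0.15) and -0.06 (SE 0.06), and Irf2, a competitor of Irf1, at 0.14 (SE 0.12) and 0.05 (SE 0.07), in the authors' deposited tables. The 95% interval of Irf3 at 24 h ran from 0.882 to 1.05 of the ethanol level. Irf7, the factor that amplifies type I interferon synthesis, had a mean of 25.8 normalised counts at 12 h and 7.18 at 24 h in the authors' deposited tables, and its interval at 12 h was wide, from 0.622-fold to 2.21-fold.

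Of the 3 cytosolic RNA sensors, 1 rose at 24 h. Ifih1 (MDA5, a sensor of long double-stranded RNA, chromosome 2) had 119 normalised counts in tamoxifen cells at 24 h, against 84.8 in ethanol cells. It rose by 0.49 in the authors' deposited table (SE 0.16, adjusted p = 0.0213 by their Wald test), or 1.40-fold with an interval of 1.13 to 1.74. At 12 h its log2 fold was 0.39 in the authors' deposited table (SE 0.23, adjusted p = 0.999 by their Wald test), with 186 normalised counts in tamoxifen cells and 142 in ethanol cells. Ddx58 (RIG-I, a sensor of short RNA ends) had log2 folds of 0.38 (SE 0.24) and 0.34 (SE 0.14) in the authors' deposited tables, with an adjusted p of 0.103 by their Wald test at 24 h. Dhx58 (LGP2, which modulates both sensors) had log2 folds of -0.08 (SE 0.42) and 0.24 (SE 0.36) in the authors' deposited tables.

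Of the 18 antiviral effectors, 12 had an adjusted p at 12 h and 6 at 24 h, and 1 passed the threshold, downwards. Isg20 (a 3′ to 5′ exonuclease of RNA, chromosome 7) had 289 normalised counts in tamoxifen cells at 24 h, against 377 in ethanol cells. It fell by 0.38 on the log2 scale at 24 h in the authors' deposited table (SE 0.11, adjusted p = 0.00742 by their Wald test), with an interval of 0.663 to 0.892 of the ethanol level. At 12 h its log2 fold was -0.08 in the authors' deposited table (SE 0.21), with 391 normalised counts in tamoxifen cells and 412 in ethanol cells.

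None of the other effectors passed the threshold at either time. Eif2ak2 (PKR, which halts translation on double-stranded RNA) had log2 folds of 0.01 (SE 0.23) and 0.13 (SE 0.09) at 12 h and 24 h in the authors' deposited tables. Adar, which edits adenosine in double-stranded RNA and keeps it from being sensed, had 0.03 (SE 0.21) and -0.08 (SE 0.05) in the authors' deposited tables. The interval of Adar at 24 h ran from 0.89 to 1.01 of the ethanol level. Bst2 had log2 folds of 0.08 (SE 0.15) and 0.08 (SE 0.15), and Ifi35 had 0.12 (SE 0.17) and 0.17 (SE 0.10), in the authors' deposited tables. Ifit2, of the same family as Ifit1, had 0.18 (SE 0.28) and 0.23 (SE 0.25) in the authors' deposited tables. Oas3 and Oasl2, of the oligoadenylate synthetase family, went opposite ways at 12 h without passing the threshold, where the authors' deposited table gives log2 folds of -0.89 (SE 0.49) for Oas3 and 0.91 (SE 0.55) for Oasl2. Genes of the Ifit, Oas, Mx and guanylate-binding protein families resemble each other in sequence, so reads that fit several of them make their values uncertain.

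The 3 members of the ISG15 and ubiquitin system held no call. Trim25, the ubiquitin ligase that acts on RIG-I, had a log2 fold of -0.15 at 24 h in the authors' deposited table (SE 0.06, adjusted p = 0.0689 by their Wald test). Usp18, which removes ISG15 and dampens type I interferon signalling, had 1.66 (SE 0.95) at 12 h and -0.45 (SE 0.81) at 24 h from means of 5.08 and 2.99 normalised counts in the authors' deposited tables.

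All guanylate-binding protein and ADP-ribosyltransferase members had positive log2 folds at both times. Over all genes with a p-value, 49.0% had a positive log2 fold at 12 h and 51.6% at 24 h. Guanylate-binding genes outside the members were mixed. Gbp4 and Gbp9 were positive at both times, Gbp6 was negative at 24 h only, Gbp10 at 12 h only, and Gbp5 had a fold at 24 h alone, which was negative. The guanylate-binding proteins are GTPases that attack the membranes of intracellular pathogens and are known as strong targets of interferon gamma. Gbp2 had 37.7 normalised counts in tamoxifen cells at 12 h, against 16.8 in ethanol cells, a log2 fold of 1.17 in the authors' deposited table (SE 0.37, adjusted p = 0.132 by their Wald test). At 24 h it had 15.5 in tamoxifen cells and 11.6 in ethanol cells, a log2 fold of 0.41 in the authors' deposited table (SE 0.40). Gbp7 had log2 folds of 1.0 (SE 0.64) at 12 h and 1.26 (SE 0.47, adjusted p = 0.055) at 24 h in the authors' deposited tables, by their Wald test. Gbp3 rests on means of 2.58 and 1.38 normalised counts, with log2 folds of 0.99 (SE 1.13) and 3.07 (SE 1.53, unadjusted p = 0.0451) in the authors' deposited tables, by their Wald test. The 3 genes lie in regions of low counts, and none passed an adjusted p under 0.05.

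Parp14, a macrodomain ADP-ribosyltransferase of the interferon response on chromosome 16, rose at 24 h. Its level there was 99.7 normalised counts in tamoxifen cells, against 64.0 in ethanol cells. The log2 fold was 0.64 in the authors' deposited table (SE 0.17, adjusted p = 0.00295 by their Wald test), or 1.56-fold with an interval of 1.24 to 1.96. At 12 h it was 0.89 in the authors' deposited table (SE 0.30, adjusted p = 0.196 by their Wald test), with 151 normalised counts in tamoxifen cells and 81.7 in ethanol cells. Its neighbour Parp9 had log2 folds of 0.29 (SE 0.26) and 0.43 (SE 0.19, adjusted p = 0.125) in the authors' deposited tables, by their Wald test. Of the exon bases of Parp9, 9.40% overlap exons of Dtx3l, its binding partner.

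Of the 3 antigen presentation members, Tapbp alone passed the threshold, at 24 h. Tapbp (chromosome 17, 33915899 to 33929292, forward strand, GRCm38) had 716 normalised counts in tamoxifen cells at 24 h, against 511 in ethanol cells. It rose by 0.49 in the authors' deposited table (SE 0.09, adjusted p = 4.33e-06 by their Wald test), or 1.40-fold with an interval of 1.24 to 1.59. At 12 h its log2 fold was 0.33 in the authors' deposited table (SE 0.17, adjusted p = 0.9 by their Wald test), with 1544 normalised counts in tamoxifen cells and 1232 in ethanol cells. Of its exon bases 29.0% overlap exons of Zbtb22 or Gm19412, and reads there may come from any of these genes. Tap1, a subunit of the peptide transporter, had 0.32 (SE 0.24) and 0.31 (SE 0.13, adjusted p = 0.0918) in the authors' deposited tables, by their Wald test. B2m had 0.12 (SE 0.15) and -0.05 (SE 0.04) in the authors' deposited tables, and its interval at 24 h ran from 0.911 to 1.02 of the ethanol level.

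**Figure D3:**
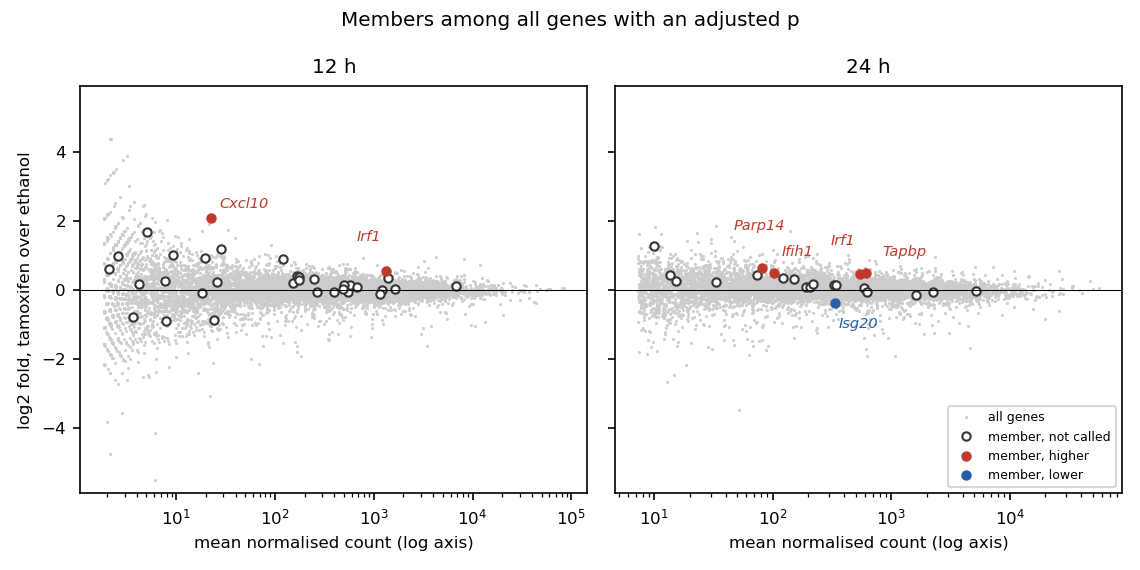
Mean normalised count (log axis) against log2 fold of tamoxifen over ethanol at 12 h (left) and 24 h (right) for all genes with an adjusted p in grey and the members as circles, red where called higher, blue where called lower and open where not called. Cxcl10 at 12 h stands above nearly all genes of similar mean, while the 5 members called at 24 h lie at the edge of the cloud of genes.

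The folds at the 2 times were compared, which have separate ethanol libraries. Of the 22 members with an adjusted p at both times, 17 had the same sign, 14 of them positive at both. Over all 11624 such genes the share with the same sign was 68.2%, against 77.3% for the members. The difference of log2 folds, 24 h minus 12 h, was tested over the root of the summed squared SE with Benjamini-Hochberg adjustment. None of the 35 members with a p at both times passed, and 0 had an unadjusted p under 0.05. Of all 14981 genes tested, 0.0134% passed and 1.64% had an unadjusted p under 0.05. For Cxcl10 the difference was -1.18 with a 95% interval of -2.64 to 0.28, so a smaller fold at 24 h was not established. For Irf1 it was -0.10, with an interval of -0.43 to 0.23. For Isg20 it was -0.30, with an interval of -0.77 to 0.16. For Parp14 it was -0.25, with an interval of -0.93 to 0.43, and for Tapbp 0.16, with an interval of -0.22 to 0.55.

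**Figure D4:**
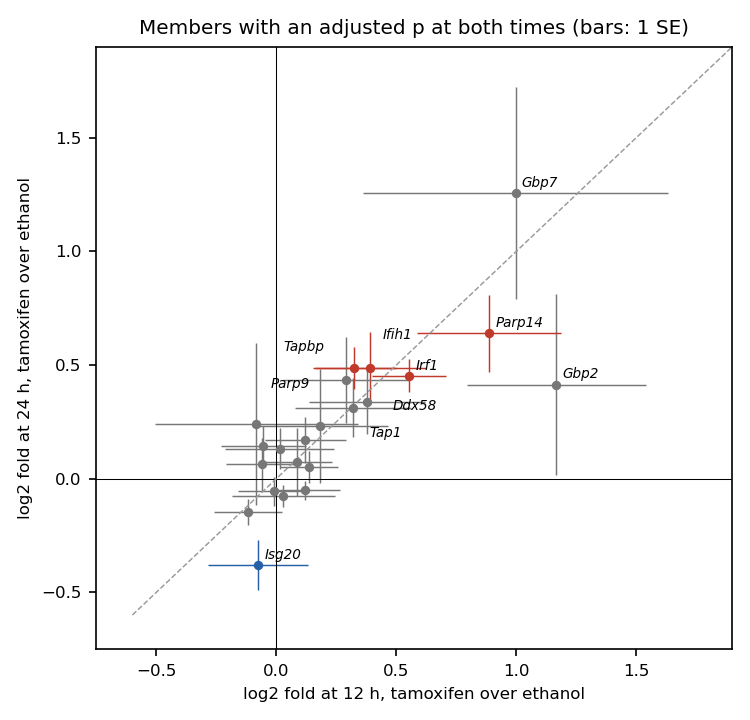
Log2 fold of tamoxifen over ethanol at 12 h (x) against 24 h (y) for the 22 members with an adjusted p at both times; bars are 1 SE, red marks members called higher and blue the member called lower at either time, and the dashed line marks equal folds. Of the points, 14 lie where both folds are positive, and the bars of most cross the dashed line.

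Precision differed between the times. For the same 22 members the median SE of the log2 fold was 0.21 at 12 h and 0.11 at 24 h, so a change of a given size passed more easily at 24 h. Of the 31 members not called at 12 h, 11 had a 95% interval within 1.5-fold of ethanol in both directions, as had 11 of the 17 not called at 24 h. The others could have changed by more than 1.5-fold without being called.

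The wider pathway was examined with further lists. Interferon ligand genes were near or at 0: at 12 h, 9 of 12 had no read and the other 3, Ifnb1, Ifne and Ifnz, had means of 0.15, 0.417 and 0.287 normalised counts in the authors' deposited table. At 24 h all 12 had no read, so each has a mean under 0.375, the mean of 3 reads over the libraries. The interferon gamma gene Ifng had no read at either time in the authors' deposited tables. Cells outside the samples, as well as protein, were not measured.

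Of 15 receptor, Janus kinase and other signalling genes, 0 were called at 12 h, with 0 at an unadjusted p under 0.05 in the authors' deposited table. At 24 h the authors' Wald test called 2 higher and 2 lower and left 11 uncalled. The kinase gene Tyk2, which serves the type I receptor, rose by 0.36 (SE 0.09), and the receptor gene Ifnar1 by 0.18 (SE 0.06, adjusted p = 0.0416), in the authors' deposited table, by their Wald test. The call of Ifnar1 was lost, with an adjusted p = 0.0563, when the same Wald test was adjusted over all genes with a p-value. In the authors' deposited table the interferon gamma receptor gene Ifngr1 fell by 0.26 (SE 0.06), and Socs3, a feedback inhibitor of Janus kinases, fell by 0.30 (SE 0.10).

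Of 18 nucleic acid sensing genes, 16 had an adjusted p at each time and 1 was called. Tmem173 (STING, the adaptor of cytosolic DNA sensing) rose by 1.40 at 24 h in the authors' deposited table (SE 0.35, adjusted p = 0.00125 by their Wald test). Its level there was 33.7 normalised counts in tamoxifen cells, against 12.8 in ethanol cells. At 12 h its log2 fold was 0.73 in the authors' deposited table (SE 0.36, adjusted p = 0.812 by their Wald test).

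Of 62 further interferon-stimulated genes in the tables, 44 had an adjusted p at 12 h, where 1 rose and 0 fell. That gene was Igtp, an immunity-related GTPase that acts on vacuoles of pathogens, which rose by 1.5 in the authors' deposited table (SE 0.40, adjusted p = 0.0221 by their Wald test). At 24 h, 35 had an adjusted p, of which 6 rose and 1 fell in the authors' Wald test. Mov10, an RNA helicase, rose by 0.65 (SE 0.11) and Irgm1, another immunity-related GTPase, by 0.44 (SE 0.09) in the authors' deposited table. Uba7, the activating enzyme of ISG15, rose by 0.96 (SE 0.24) and the Schlafen gene Slfn8 by 1.61 (SE 0.45) in the authors' deposited table. Lgals3bp, the 1 gene that fell, is at -0.34 in the authors' deposited table (SE 0.12) and was singled out with its value in view. Its call was lost, with an adjusted p = 0.0552, when the same Wald test was adjusted over all genes with a p-value. The median log2 fold of this list was 0.17 at 12 h and 0.21 at 24 h over the genes with an adjusted p.

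Of 28 further genes of antigen processing, 0 of the 20 with an adjusted p were called at 12 h and 3 were higher at an unadjusted p under 0.05 in the authors' deposited table. At 24 h, 4 of 17 rose and 0 fell in the authors' Wald test, with 6 higher and 0 lower at an unadjusted p under 0.05. Erap1, which trims peptides in the endoplasmic reticulum, rose by 0.30 in the authors' deposited table (SE 0.06), as did the immunoproteasome subunit gene Psmb10 by 0.58 (SE 0.16). The proteasome activator gene Psme1 rose by 0.33 in the authors' deposited table (SE 0.10), and the chaperone gene Canx (calnexin) by 0.11 (SE 0.03). The call of Canx was lost, with an adjusted p = 0.153 in the Wald test, when the SE was held at or above that of genes of similar mean. The calls of these lists, like those of the members, are read against the shares of all genes called. At 12 h 0.215% of all genes rose and 0.728% fell, and at 24 h 5.9% rose and 6.52% fell.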

How the data were processed

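Libraries were made with a TruSeq RNA v2 kit from total RNA, per the labels' protocols. HISAT2, mm10 and DESeq2 are named per the submitters' processing notes, with no versions; which program counted reads, and on which annotation, was not given in the sources used here. Columns of the deposited tables are, per the file headers, a mean normalised count (a signal scaled by size factors), a log2 fold change and its SE, a Wald score, and a p-value before and after adjustment. Ethanol replicate 2 of 12 h was not analysed here. The tables hold no counts per library, so the count test planned was replaced by the authors' Wald test, and 13044 and 11648 genes have an adjusted p.

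The direction was checked at 12 h: genes with a single read had 7 distinct means, 4 with positive and 3 with negative folds, as 4 tamoxifen and 3 ethanol libraries require. At 24 h the split is 4 and 4 and the direction was taken from the fall of Klf5.

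The members and lists were chosen with earlier results of these data known. Values are given for every member called or with an unadjusted p under 0.05 at either time, for those of highest and lowest mean, and for up to 4 called genes of each further list per time with the smallest p; members of a role are added for completeness. Exon lengths, overlaps and positions were taken from GENCODE annotation of GRCm38, which is the same assembly as mm10. Intervals are 1.96 SE wide on each side. How many libraries show a direction cannot be given. The test of the difference between times was tested on simulated data. Alternatives changed the adjustment, a minimum mean, the SE, the centring and the threshold. Tables were read with pandas 2.3.3, tests used scipy 1.17.1 and numpy 2.4.6 under Python 3.11.15, and plots used matplotlib 3.10.9. A further signalling gene of the pathway is not reported here.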

Additional observations from a re-analysis of the deposited data

How the results depend on the processing

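No paired analysis was possible because the tables hold no value per library, and for the same reason no replicate could be left out, no replicate block fitted and no other count test or normalisation run. The members called higher at 12 h numbered 1 (Irf1) in place of 2 when a minimum mean of 50 normalised counts was required, since Cxcl10 has a lower mean. The members called lower at 24 h numbered 2 in place of 1 at an adjusted p under 0.1, with Trim25 added to Isg20, and those called higher numbered 6 in place of 4, with Gbp7 and Tap1 added. The first 2 of these changes exceed 1.5 times the reported count. The other 26 alternative values, the 6 in place of 4 among them, lay within 1.5 times the reported count or, for a median, within the median SE of the members. The median log2 fold of the members ranged from 0.12 to 0.19 at 12 h and from 0.14 to 0.21 at 24 h. Every member called at a time kept its call where its mean passed the filter. Among the named genes of other lists, Ifnar1 (adjusted p = 0.0563) and Lgals3bp (adjusted p = 0.0552) lost their call when p was adjusted over all genes with a p-value, and Canx (adjusted p = 0.153) did with the SE held at or above that of genes of similar mean. Herc6, counted among the further interferon-stimulated genes that rose at 24 h, lost its call under both settings (adjusted p = 0.0665 and 0.064). Genes under a mean of 1.84 at 12 h and 7.34 at 24 h have no adjusted p in the authors' deposited tables, and depth limits the members whose mean is near that of 3 reads.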

Other observations

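Levels of the members in ethanol cells were lower at 24 h than at 12 h for 16 of the 19 members whose mean at 12 h was 50 normalised counts or more, as they were for 6915 of all 10320 genes above the same mean. Their median level at 24 h was 62.4% of that at 12 h, against 79.9% over all of these genes. The tables were normalised separately and each time has its own libraries, so this is a description with no test. Irf1 had 458 normalised counts in ethanol cells at 24 h and 1056 at 12 h, so its level in tamoxifen cells at 24 h, 627, was under the ethanol level at 12 h. Ifit2 had 30.6 at 24 h and 140 at 12 h in ethanol cells, and Bst2 had 202 and 652.

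The 14 members with an interferon-stimulated response element in the promoter window had a median mean of 15.9 normalised counts at 12 h and 7.01 at 24 h. The 18 members with a promoter in the table and no such match had 257 and 170. These means were not divided by exon length, which differs between genes. Of the members with a match, 1 of the 11 with an adjusted p at 12 h rose (Cxcl10), and 0 of the 6 at 24 h were called, in the authors' Wald test. Of those without a match, 1 of 17 rose at 12 h, and 3 of 13 rose and 1 fell at 24 h. Over all genes with an adjusted p, 0.215% rose and 0.728% fell at 12 h, and 5.9% rose and 6.52% fell at 24 h. With so few members on each side, the calls of those with and without a match were not compared.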
